A study of Mus musculus with 4 samples.

Results

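The genes described here make, destroy or read retinoic acid, the signalling molecule that cells make from vitamin A. They are 10 of the 27194 genes named on the array: Rdh10, Dhrs3, Aldh1a1, Aldh1a2, Aldh1a3, Aldh1a7, Cyp26a1, Cyp26b1, Cyp26c1 and Rarb. They were chosen by name, as the probes that the array files assign to these genes, which gave 16 probes. In this pathway retinol is oxidised to retinal by retinol dehydrogenases, with RDH10 as the main embryonic enzyme, and DHRS3 turns retinal back into retinol. Retinal is then oxidised to retinoic acid by aldehyde dehydrogenases of the ALDH1A family, and the cytochrome P450 enzymes of the CYP26 family break retinoic acid down. Retinoic acid acts through nuclear receptors (RARs) bound to DNA, and both too much and too little of it are known to disturb the growth of the embryonic face.

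The tissues came from embryos of ICR mice, an outbred stock, and the labels give no treatment, mutation or transgene for any of them. At E9.5, medial mandibular arch was taken from 12 embryos (MMA). At E11.5, the lateral lingual swellings, which later form the tongue body, came from 4 embryos (LLS), and lateral mandibular arch came from 4 embryos (LMA). At E14.5, medial tongue was taken from 4 embryos (T). Each tissue was pooled in 1 tube and hybridised to 1 single-colour Agilent array, so no difference has a replicate check and no p-value was computed. The stated aim was to find genes specific to a tissue or stage.

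Levels are given as relative signal, the background-subtracted signal of a probe with the 75th percentile of all probes on the same array set to 100%. The ± after a level is the error that the scanner software assigns to that spot on 1 array, and the ± after a log2 difference combines the errors of both arrays. These errors, and the spot SD of 0.065 to 0.067 for a log2 difference between arrays found from 291 probes printed 10 times, cover the array and not the difference between pools of embryos. Where a probe was not well above background in 1 tissue, its value was raised to the lowest signal well above background on that array, and the difference is written as at least that size. In each array between 57.0% and 62.9% of spots were well above background, and 0 were saturated. In tissue pools, fewer cells of a type and less RNA per cell cannot be told apart.

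Markers were read to check the dissections. Of 7 arch mesenchyme markers, 7 were detected in each tissue apart from T, where Dlx5 was dim. Of 7 skeletal muscle markers, 7 were detected in T and 3 in MMA, where Myod1, Myog, Myf5 and Tnnc2 were dim, and Myf5 was also dim in LLS and LMA. The extraction text of the labels names cerebellum, and of 6 cerebellum markers Atoh1, Gabra6 and Calb1 were not well above background in any of the 4 tissues, while Pcp2, Zic1 and Cbln1 were in each.

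Of the 10 members, 9 were well above background in at least 1 tissue and 5 in every tissue. Cyp26c1, for another CYP26 enzyme, was not well above background in any of them, with relative signals of 4.86% ± 1.4 (MMA), 1.14% ± 1.1 (LLS), 2.52% ± 1.0 (LMA) and 1.46% ± 1.3 (T), and it was not compared. Cyp26c1 had 1 probe, so a transcript that this probe misses would not be seen. For the other 9, the highest tissue was at least 4-fold above the lowest in 7, against 14.3% of the 18679 genes with a probe well above background somewhere. The median span of these 9 was 4.62 on the log2 scale, and that of all such genes was 0.84. The pattern was not shared: LLS was the highest tissue for Rdh10, Dhrs3, Aldh1a1, Aldh1a2, Aldh1a7 and Rarb, T for Aldh1a3 and Cyp26a1, and LMA for Cyp26b1. For Aldh1a2 and Cyp26b1, LLS and LMA lay within 2 errors of each other. MMA was the lowest tissue, or not well above background, for 8 of the 9, and Cyp26a1 was the exception. For Dhrs3, MMA and LMA lay within 2 errors of each other.

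**Figure D1:**
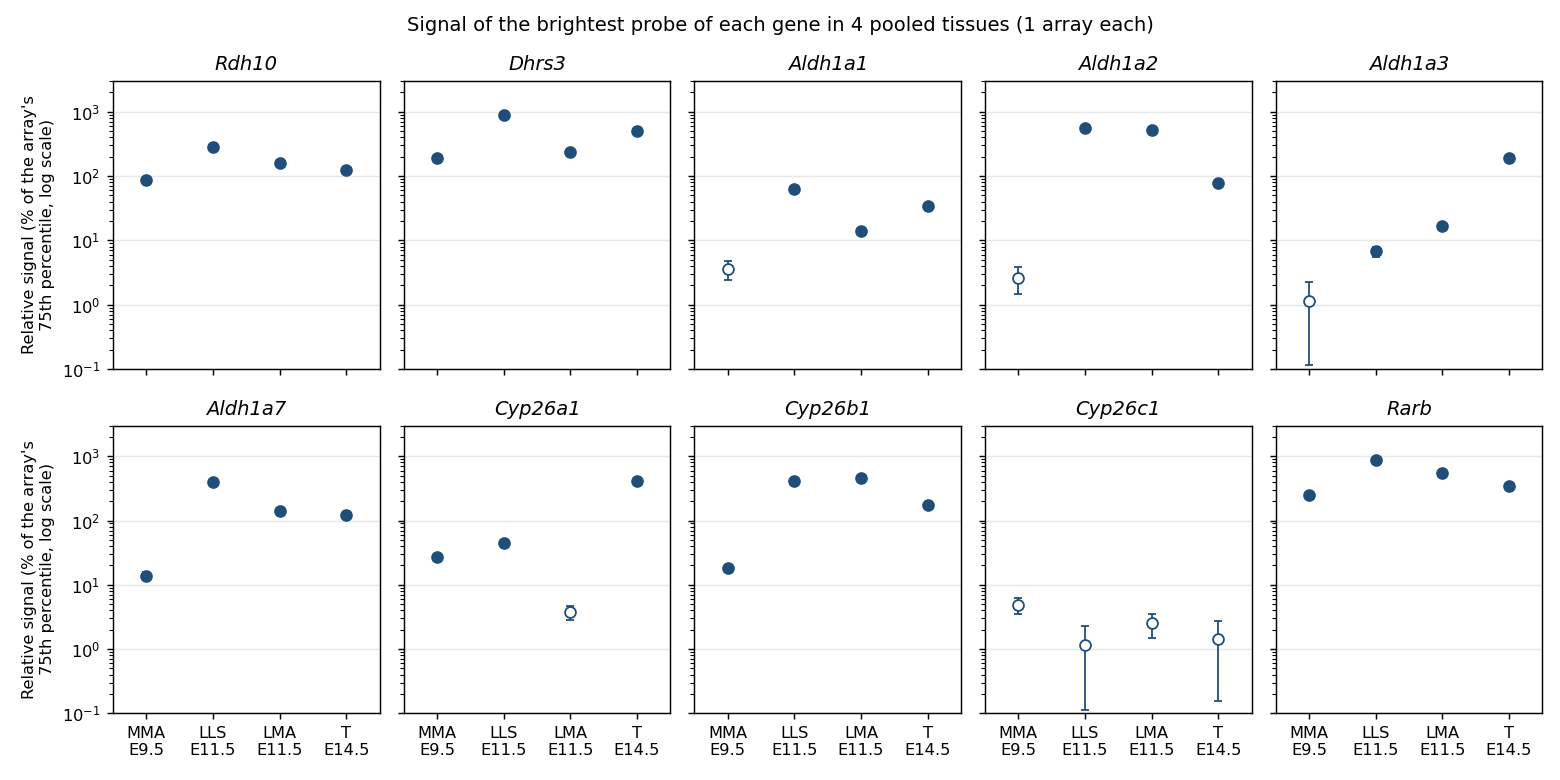
Relative signal (percent of the 75th percentile of the array, log axis) of the brightest probe of each gene in the 4 tissues, with 1 array per tissue. Filled points are well above background, open points are not, and bars are the error given by the scanner software (shortened at the lower end where they would reach 0). Aldh1a2 stands at 567% in LLS and 510% in LMA but is dim in MMA, while Cyp26a1 is highest in T (410%) and dim in LMA, and Cyp26c1 has open points throughout.

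The retinol step was read first. Rdh10, the gene for the enzyme that makes retinal from retinol, had relative signals of 86.6% ± 8.7 (MMA), 284% ± 28 (LLS), 160% ± 16 (LMA) and 126% ± 13 (T). LLS was the highest, and LMA and T lay within 2 errors of each other. Its probe lies on chromosome 1 at 16122506 to 16122565 (mouse build mm9, as the file headers give it). The difference was 1.71 ± 0.21 in LLS minus MMA (3.27-fold), 0.82 ± 0.20 in LLS minus LMA and -1.18 ± 0.20 in T minus LLS.

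Dhrs3 encodes the enzyme that returns retinal to retinol and is itself known to be switched on by retinoic acid. Its brighter probe (chromosome 4, 144517485 to 144517544) read 189% ± 19 (MMA), 892% ± 89 (LLS), 234% ± 23 (LMA) and 494% ± 49 (T). The level in LLS was 3.80-fold that in LMA of the same stage (1.93 ± 0.20) and 4.73-fold that in MMA (2.24 ± 0.20), and LMA and MMA lay within 2 errors of each other. The other probe, at 144483279 to 144483338, read 20.6% ± 2.3 in LLS and 5.87% ± 1.1 in LMA, and its difference was 1.81 ± 0.31.

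Aldh1a2, known as Raldh2, encodes the enzyme that makes most retinoic acid in the early mouse embryo. Its probe (chromosome 9, 71143931 to 71143990) read 2.63% ± 1.2 (MMA, dim), 567% ± 57 (LLS), 510% ± 51 (LMA) and 76.9% ± 7.8 (T). Both E11.5 tissues were high, and their difference of 0.15 ± 0.20 was smaller than its error. LLS was at least 108-fold above MMA (6.75), and LMA at least 97.0-fold above MMA (6.60). Normexp background correction, which adds an offset of 50 to each signal, gave 4.89 and 4.79 for these bounds. In T minus LLS the difference was -2.88 ± 0.21, so that the tongue held 7.37-fold less, yet still at least 14.6-fold more than MMA (3.87).

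Aldh1a3 encodes another retinal-oxidising enzyme, known from sensory and surface epithelia. Its brightest probe (chromosome 7, 73535785 to 73535844) read 1.14% ± 1.1 (MMA, dim), 6.74% ± 1.2 (LLS), 16.7% ± 1.8 (LMA) and 194% ± 19 (T). T stood above every other tissue, with 28.7-fold more than LLS (4.84 ± 0.29) and 11.6-fold more than LMA (3.54 ± 0.22); after normexp these were 3.32 and 2.82 on the log2 scale. A second probe, at 73553907 to 73553966, read 21.5% ± 2.5 in T and 4.35% ± 0.96 in LMA and was dim in LLS and MMA, and it differed by 2.31 ± 0.36 in T minus LMA. Another probe, for a transcript with its own Ensembl identifier, was dim in all 4 tissues. The lower value in LLS than in LMA (-1.31 ± 0.30) rests on dim signals and was -0.49 after normexp background correction, which is under 2-fold.

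The tongue array thus held less Aldh1a2 and more Aldh1a3 than the E11.5 swellings. Epithelial markers stood beside this: in T minus LLS, 2 of 7 were at least 2-fold higher (Krt5 5.34, Krt14 5.36) and 0 lower. The summed relative signal of the 7 was 41739% in T and 6229% in LLS, of which Krt5 gave 17456% in T and 431% in LLS and Krt14 gave 17696% in T and 432% in LLS. Of 7 muscle markers, 7 were higher in T (summed 47805% in T and 829% in LLS), and of 7 arch mesenchyme markers, 7 were lower (659% in T and 2707% in LLS). Of 4 pharyngeal endoderm markers compared, 3 were higher, and of 6 macrophage markers 5 were higher and of 6 erythroid markers 5 lower. Among 5 neuronal markers 3 were higher and 0 lower, and among 6 neural crest and Schwann cell markers 4 were higher and 0 lower. The part of these cell types in the Aldh1a2 and Aldh1a3 differences was not tested.

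Aldh1a1 and Aldh1a7 are neighbouring relatives on chromosome 19. ALDH1A1 oxidises retinal and other aldehydes, while ALDH1A7, found in rodents, is known for little activity on retinal. Aldh1a1 (20717764 to 20717823) read 3.63% ± 1.2 (MMA, dim), 62.7% ± 6.4 (LLS), 14.0% ± 1.6 (LMA) and 34.3% ± 3.6 (T). The level in LLS was 4.48-fold that in LMA (2.16 ± 0.22) and at least 11.9-fold that in MMA.

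Aldh1a7 (20767553 to 20767612) read 13.9% ± 1.8 (MMA), 394% ± 39 (LLS), 139% ± 14 (LMA) and 124% ± 12 (T). It was 3.17-fold lower in T than in LLS (-1.67 ± 0.20), 28.3-fold higher in LLS than in MMA (4.82 ± 0.23) and 2.83-fold higher in LLS than in LMA (1.50 ± 0.20). Both genes were highest in LLS. They parted in T: Aldh1a1 was 2.45-fold above LMA there (1.29 ± 0.23), and 0.82 by normexp, while Aldh1a7 differed by -0.17 ± 0.20, less than its error. The 60-base probes of the pair share no run longer than 8 bases.

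The promoters of this pair are shown because they are partly the same sequence (RefSeq, build GRCm38.p6; 250 bases before the start, 5′ to 3′ on the strand of the gene). Capitals mark the longest run that both share, 65 bases, which begins 94 bases before the start in each. The Aldh1a1 window is chr19:20601718-20601967 on the plus strand and the Aldh1a7 window chr19:20727557-20727806 on the minus strand. The other listed start of Aldh1a1 shares no run longer than 8 bases with Aldh1a7.
Aldh1a1: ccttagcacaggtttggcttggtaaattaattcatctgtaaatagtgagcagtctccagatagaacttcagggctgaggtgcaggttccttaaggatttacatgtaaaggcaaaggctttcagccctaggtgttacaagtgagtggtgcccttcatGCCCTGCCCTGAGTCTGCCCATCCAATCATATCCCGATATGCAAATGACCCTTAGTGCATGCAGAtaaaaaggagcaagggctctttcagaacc
Aldh1a7: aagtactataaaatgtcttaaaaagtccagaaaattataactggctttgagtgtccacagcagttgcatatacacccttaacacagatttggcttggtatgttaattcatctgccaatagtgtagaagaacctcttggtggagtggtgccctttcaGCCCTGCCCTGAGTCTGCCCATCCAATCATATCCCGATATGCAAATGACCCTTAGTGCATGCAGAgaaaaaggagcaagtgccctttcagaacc

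The genes of the breakdown enzymes did not share a profile. Cyp26a1, which encodes the enzyme known to be induced most directly by retinoic acid, had a probe on chromosome 19 at 37775566 to 37775625. It read 27.6% ± 3.0 (MMA), 44.9% ± 4.6 (LLS), 3.76% ± 0.95 (LMA, dim) and 410% ± 41 (T). T was at least 103-fold above LMA (6.69), 9.13-fold above LLS (3.19 ± 0.21) and 14.9-fold above MMA (3.90 ± 0.21). LLS was at least 11.3-fold above LMA (3.50) and 1.63-fold above MMA (0.71 ± 0.22). LMA was at least 6.94-fold below MMA (-2.80). After normexp the bounds were 4.58 in T minus LMA, 1.76 in LLS minus LMA and -1.30 in LMA minus MMA.

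Cyp26b1, the gene for the CYP26 enzyme known from limb and craniofacial mesenchyme, read 18.5% ± 2.2 (MMA), 408% ± 41 (LLS), 454% ± 45 (LMA) and 178% ± 18 (T) (chromosome 6, 84521952 to 84522011). LMA was 24.6-fold (4.62 ± 0.22) and LLS 22.1-fold (4.46 ± 0.22) above MMA. The E11.5 tissues did not differ beyond the error (-0.16 ± 0.20). T was 2.30-fold lower than LLS (-1.20 ± 0.20), 2.56-fold lower than LMA (-1.35 ± 0.20) and 9.61-fold higher than MMA (3.26 ± 0.23). Between LLS and LMA, then, Cyp26a1 differed by a bound of 3.50 while its relative Cyp26b1 stayed within its error, and in T minus LLS the pair went opposite ways.

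Rarb encodes retinoic acid receptor beta, and it is also a textbook target gene of retinoic acid. It had 4 probes. The brightest, at its 3′ end (chromosome 14, 17263511 to 17263570), read 246% ± 25 (MMA), 882% ± 88 (LLS), 542% ± 54 (LMA) and 339% ± 34 (T). The order was LLS, LMA, T and MMA, and each neighbour differed by more than 2 errors from the next; T minus MMA was small (0.47 ± 0.20), at 1.38-fold. LLS was 3.59-fold above MMA (1.84 ± 0.20), and T minus LLS was -1.38 ± 0.20.

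A nearby 3′ probe of Rarb (17263889 to 17263947), which the files tie to the same 4 RefSeq transcripts, read 58.7% ± 6.0 (MMA), 216% ± 22 (LLS), 139% ± 14 (LMA) and 72.6% ± 7.4 (T). Its differences of 1.88 ± 0.21 in LLS minus MMA and -1.57 ± 0.21 in T minus LLS were close to those of the brightest probe. The probe far upstream (17651424 to 17651483), which the files assign to transcript variants beta1 and beta3, read 1.09% ± 1.1 (MMA), 2.97% ± 1.0 (LLS), 1.22% ± 0.82 (LMA) and 8.16% ± 1.4 (T). It was well above background only in T, where the lowest signal so called was 5.44%. T was at least 0.80 above LLS, 1.04 above LMA and 0.63 above MMA on the log2 scale. The 3′ probes were lower in T than in LLS. By this signal near background, the upstream and 3′ probes of Rarb did not have the same highest tissue. Another probe, from a cDNA clone, was dim in all 4 tissues.

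**Figure D2:**
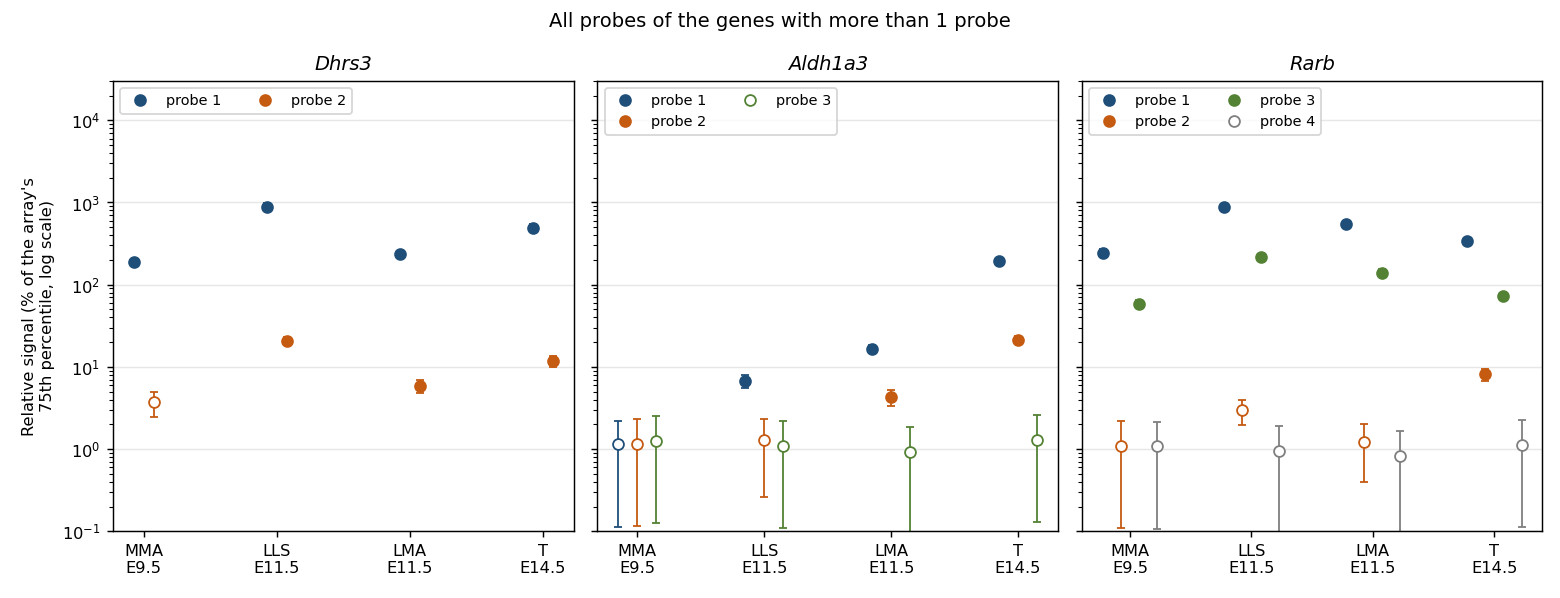
Relative signal (percent of the 75th percentile of the array, log axis) of every probe of Dhrs3, Aldh1a3 and Rarb in the 4 tissues, 1 array each. Filled points are well above background, open points are not, and bars are the error given by the scanner software (shortened at the lower end where they would reach 0); probe 1 is the brightest of its gene. In Rarb, probes 1 and 3 (both 3′) are highest in LLS, whereas probe 2 (variants beta1 and beta3) is filled in T alone, at 8.16%.

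Listed promoter windows of Rarb and Cyp26a1 hold the element that retinoic acid receptors are best known to bind. This DR5 element is a pair of half-sites (either AGGTCA or AGTTCA or GGGTCA or GGTTCA) in the same direction with 5 bases between them. It was searched on both strands in the 250 bases before each start in the RefSeq promoter table, which lists 1 start for Rarb. Of 32851 such windows in the mouse, 29 (0.0883%) held it. Of the members, 8 had 11 windows among them (not Rdh10 and Aldh1a3), and the DR5 element was present in 2, those of Rarb and Cyp26a1. Direct repeats with spacers of 1 or 2 bases, found in 0.164% and 0.174% of all windows, were present in 0 of the 11. A match is a description of the sequence and was not tested for binding. Both promoters are shown 5′ to 3′ on the strand of the gene (RefSeq, GRCm38.p6), with the DR5 element in capitals, for Rarb at chr14:16575477-16575726 on the minus strand and for Cyp26a1 at chr19:37697558-37697807 on the plus strand.
Rarb: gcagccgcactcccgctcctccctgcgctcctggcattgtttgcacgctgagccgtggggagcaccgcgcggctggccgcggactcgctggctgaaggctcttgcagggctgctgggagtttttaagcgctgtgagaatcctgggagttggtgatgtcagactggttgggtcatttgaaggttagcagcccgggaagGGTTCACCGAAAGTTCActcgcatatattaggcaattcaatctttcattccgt
Cyp26a1: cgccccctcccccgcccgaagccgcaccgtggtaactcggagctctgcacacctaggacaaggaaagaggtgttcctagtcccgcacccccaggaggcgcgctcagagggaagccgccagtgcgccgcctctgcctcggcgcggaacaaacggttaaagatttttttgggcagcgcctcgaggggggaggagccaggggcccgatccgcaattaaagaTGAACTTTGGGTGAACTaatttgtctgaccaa

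In Rarb the element lies 53 to 37 bases before the start and reads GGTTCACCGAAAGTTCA. In Cyp26a1 it lies 32 to 16 bases before the start on the opposite strand and reads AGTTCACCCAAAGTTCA there. Their second half-sites are both AGTTCA. The transcripts of the pair did not follow one order: Rarb was highest in LLS and second in LMA, whereas Cyp26a1 was highest in T and dim in LMA.

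Set side by side, between 5 and 7 of the 9 members compared differed by at least 2-fold in each pair of tissues. In LLS minus MMA, 7 of the 9 compared were at least 2-fold higher and 0 lower, against 9.61% of all genes higher and 5.57% lower (15.2% either way). Of the 7, 2 are bounds. The median of the 9 was 2.24, and that of all genes was -0.06, with Cyp26a1 within 2-fold. Aldh1a3 had a bound of 0.36, which does not show whether it passed 2-fold (2.56 without the floor). With its 3 probes averaged it was -1.31, where the dim MMA average had been raised to a floor above the LLS average. That value gives no direction. Beside this, 5 of 6 muscle markers compared were higher (summed 829% in LLS and 48.0% in MMA), 3 of 7 arch mesenchyme markers were lower (2707% in LLS and 10350% in MMA) and 4 of 6 macrophage markers were higher (455% in LLS and 192% in MMA). Of 4 pharyngeal endoderm markers compared, 3 were higher and 1 lower (1462% in LLS and 313% in MMA), of 5 neural crest and Schwann cell markers 3 were higher, and of 6 endothelial markers 3 were lower. Of 7 epithelial markers, 2 were higher and 2 lower (6229% in LLS and 13453% in MMA). The part of these cell types in the member differences was not tested.

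In LMA minus MMA, 6 were higher and Cyp26a1 was lower, against 10.5% and 7.12% of all genes (17.6% either way), with Dhrs3 (0.31) and Rdh10 (0.89) within 2-fold. Among the 7 that differed by at least 2-fold, 4 are bounds. Of the 6 higher, the bounds of Aldh1a1 (1.41) and Aldh1a3 (1.66) were 0.45 and 0.69 after normexp. Aldh1a3 was -0.37 with its 3 probes averaged, where the dim MMA average had been raised to a floor above the LMA average. That value gives no direction. Rarb (1.14 ± 0.20) was 0.54 with its 4 probes averaged, of which 1 is dim in all 4 tissues and another in all but T. In the same comparison 6 of 6 muscle markers were higher (median 5.64; 2523% in LMA and 48.0% in MMA), 5 of 6 macrophage markers were higher (548% in LMA and 192% in MMA) and 4 of 7 epithelial markers were lower and 1 higher (2210% in LMA and 13453% in MMA). Of 4 pharyngeal endoderm markers compared, 2 were lower and 0 higher (62.8% in LMA and 313% in MMA over 5). The part of these cell types was not tested.

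In T minus LLS, 5 members were at least 2-fold lower (Aldh1a2, Aldh1a7, Cyp26b1, Rarb and Rdh10) and 2 higher (Aldh1a3 and Cyp26a1), against 6.03% of all genes lower and 12.6% higher (18.6% either way). Aldh1a1 (-0.87 ± 0.21) and Dhrs3 (-0.85 ± 0.20) were lower by less than 2-fold. The median was -1.18, and that of all genes was -0.08. Synthesis and breakdown genes stood on both sides: among the higher were 1 of each, and among the lower were Aldh1a2 and Rdh10 with Cyp26b1. Cyclic loess brought Rdh10 just under 2-fold (-0.99), and averaging its 4 probes brought Rarb to -0.32.

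In LLS minus LMA, the comparison within 1 stage, Cyp26a1, Aldh1a1, Dhrs3 and Aldh1a7 were at least 2-fold higher and Aldh1a3 lower, against 3.57% and 2.86% of all genes (6.42% either way). Aldh1a2, Cyp26b1, Rarb (0.70 ± 0.20) and Rdh10 stayed within 2-fold. Of 7 epithelial markers, 4 were at least 2-fold higher and 0 lower. Their median was 2.05, and their summed relative signal was 6229% in LLS and 2210% in LMA. Of 4 pharyngeal endoderm markers compared, 3 were higher and Pax1 lower (1462% in LLS and 62.8% in LMA over 5), with Foxa2 dim in LMA and Nkx2-1 dim in every tissue. Of 7 arch mesenchyme markers, 4 were lower, as were 5 of 6 endothelial markers and 4 of 6 muscle markers compared. The part of these cell types in the LLS and LMA differences was not tested.

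In T minus LMA, 4 members were higher (Aldh1a1, Aldh1a3, Cyp26a1 and Dhrs3) and Aldh1a2 and Cyp26b1 lower, against 13.8% and 7.26% of all genes (21.1% either way). Dhrs3 was near the 2-fold line (1.08 ± 0.20, and just under that line after normexp). Of 7 epithelial markers, 6 were higher in T than in LMA (41739% in T and 2210% in LMA). Of 7 arch mesenchyme markers, 7 were lower (659% in T and 7830% in LMA), 6 of 7 muscle markers were higher (47805% in T and 2523% in LMA), 3 of 4 pharyngeal endoderm markers were higher (3616% in T and 62.8% in LMA) and 5 of 6 erythroid markers were lower (9394% in T and 83135% in LMA). The part of these cell types in the T and LMA differences was not tested.

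In T minus MMA, 7 were higher and 0 lower, against 18.0% and 13.8% of all genes (31.8% either way), with Rarb (0.47 ± 0.20) and Rdh10 (0.54 ± 0.21) within 2-fold. Among the 7 higher, 3 are bounds. Beside this, 7 of 7 muscle markers were higher (median 8.81; 47805% in T and 48.0% in MMA), 4 of 4 pharyngeal endoderm markers were higher (3616% in T and 313% in MMA), 7 of 7 arch mesenchyme markers were lower (659% in T and 10350% in MMA) and 6 of 6 erythroid markers were lower (9394% in T and 111719% in MMA). Macrophage markers were higher in 5 of 6, neuronal markers in 4 of 5 and neural crest and Schwann cell markers in 5 of 6, with 0 lower in each. Of 7 epithelial markers, 3 were higher and 2 lower (41739% in T and 13453% in MMA), and of 6 endothelial markers 3 were lower and 0 higher. The part of these cell types in the T and MMA differences was not tested. These 6 comparisons share 4 arrays, so that only 3 of them are independent of the others.

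**Figure D3:**
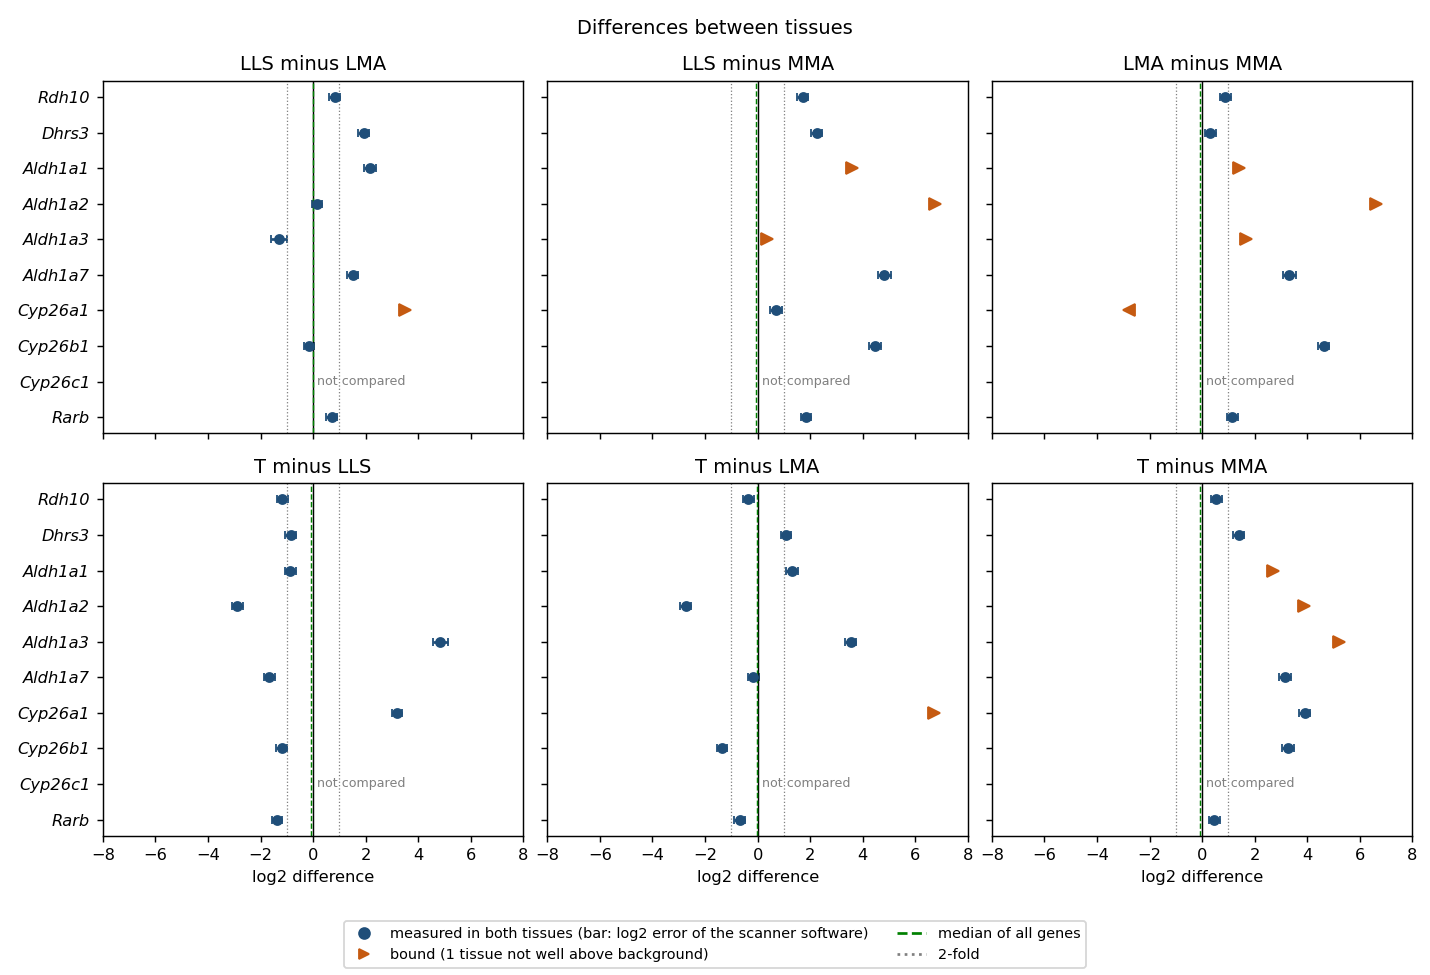
Log2 difference of each gene in the 6 pairs of tissues, the first-named tissue minus the second, by the brightest probe. Circles were measured in both tissues and carry the log2 error of the scanner software, triangles are bounds, dotted lines mark 2-fold and the dashed line the median of all genes. Most genes lie right of the 2-fold line against MMA, and in T minus LLS Aldh1a3 (4.84) and Cyp26a1 (3.19) lie apart from the 7 others.

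The rest of the pathway was read from 5 lists with 42 different genes on the arrays. In LLS minus LMA, 1 of 35 compared was at least 2-fold higher and 3 lower, with a median of 0.07, against 3.57% and 2.86% of all genes. In LLS minus MMA, 6 of 36 were higher and 5 lower (median 0.09), against 9.61% and 5.57% of all genes. In T minus LLS, 6 of 34 were higher and 5 lower (median -0.05), against 12.6% and 6.03%. In T minus MMA, 9 of 36 were higher and 4 lower, against 18.0% and 13.8%. Crabp2 was listed and is not analysed here, and Nrip1 and Dhrs9 belong to 2 lists each.

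Of the transport and storage genes, 2 of 5 compared were at least 2-fold higher and 2 lower in T minus LLS (12.6% and 6.03% of all genes), and 0 of 6 were higher and 3 lower in LLS minus MMA (9.61% and 5.57%). Crabp1, for the cytosolic protein that binds retinoic acid, was lower in T than in LLS (-1.65), and it was -0.95 in LLS minus LMA. Rbp4, for the carrier in blood, was 1.68 higher in T than in LLS and differed by -1.71 in LLS minus MMA, and the retinol receptor gene Stra6 was 1.24 higher in T than in LLS. Lrat, for the enzyme that stores retinol as esters, was dim in all 4 tissues.

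Of the 13 other oxidoreductase genes, 10 were compared. Of these, 2 were at least 2-fold higher and 0 lower in T minus LLS, against 12.6% and 6.03% of all genes. Rdh1 was higher in T, at 44.6% against 6.93% in LLS (2.69), and Retsat, for retinol saturase, was 1.05 higher. Rdh14 was 1.63 higher in LLS than in MMA and 2.13 higher in T than in MMA. Adh7, Bco1 and Dhrs9 were dim in all tissues.

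Of 6 receptor and partner genes, 3 were at least 2-fold higher in LLS than in MMA and 0 lower, against 9.61% and 5.57% of all genes. The 3 were Rara (1.28, and 0.95 by its other probe), Rxra (1.53) and Rxrg (1.79). Rarg (-0.03) and Rxrb (0.33) stayed within 2-fold. Rxrg, the retinoid X receptor gene known from muscle and nerve, was also lower in LLS than in LMA (-1.48) and higher in T than in LLS (2.31). Muscle markers had medians of -1.65 (6 compared) and 3.18 (7 compared) in the same comparisons, and their part in the Rxrg differences was not tested. Of 6 co-regulator genes, 1 was at least 2-fold higher in LLS than in MMA and 0 lower, against 9.61% and 5.57% of all genes. It was Ncoa1, a coactivator gene (2.13, and 1.64 by its other probe).

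Of the genes known to respond to retinoic acid, 9 of 12 were compared in LLS minus LMA (Cdx1 among them, with no usable size, as it was dim in LLS and near background in LMA), and Nr2f2 was higher (1.53), while Tshz1 was lower (-1.12). Nr2f2 encodes an orphan nuclear receptor, and its level was 327% (MMA), 875% (LLS), 303% (LMA) and 389% (T). Tgm2, for tissue transglutaminase, was 2.96 higher in T than in LLS and -3.04 in LLS minus MMA. Meis2 (-1.61), Nr2f1 (-1.13) and Nr2f2 (-1.17) were lower in T than in LLS, in the direction of Rarb and opposite to Cyp26a1. Hoxb1, Stra8 and Dhrs9 were dim in every tissue. The median of the responding genes was 0.22 in LLS minus MMA and -0.31 in T minus LLS, beside -0.06 and -0.08 for all genes.

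**Figure D4:**
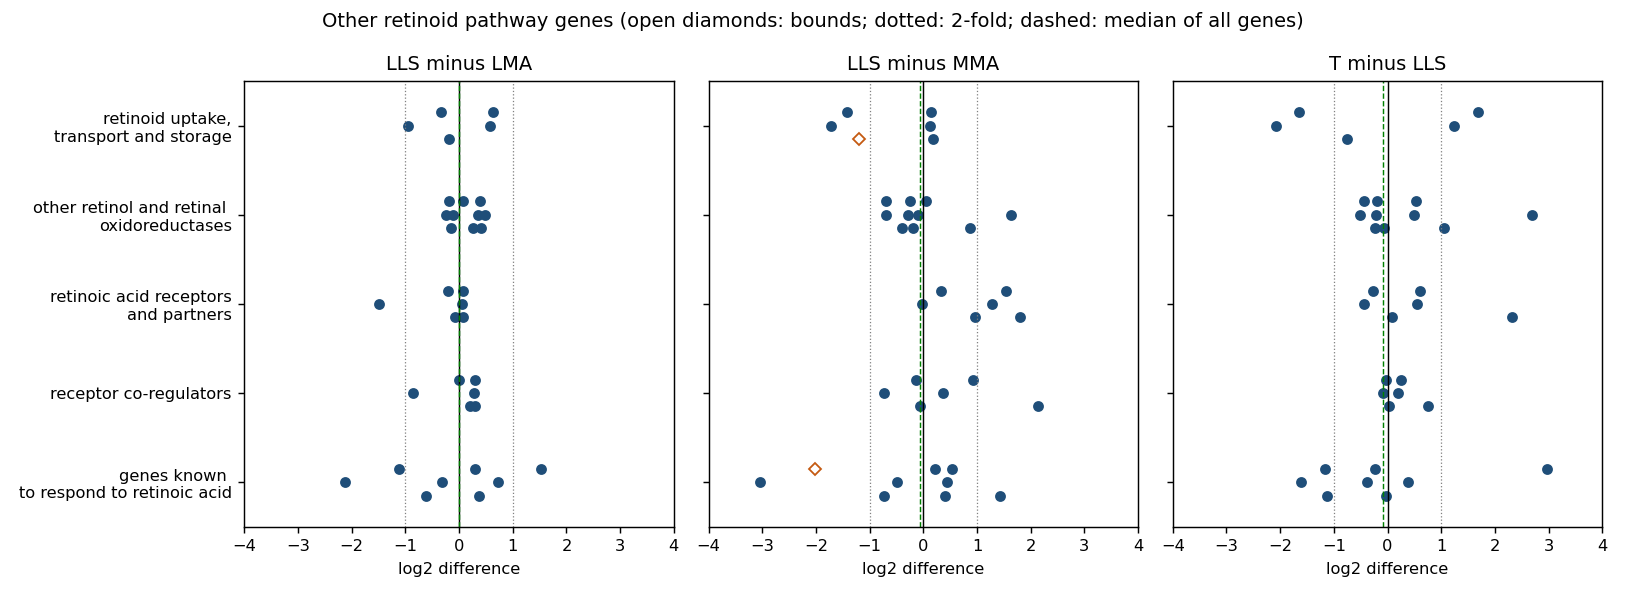
Log2 differences of the other retinoid pathway genes in LLS minus LMA, LLS minus MMA and T minus LLS, 1 point per gene by its brightest probe, in the 5 lists. Dotted lines mark 2-fold, the dashed line is the median of all genes and open diamonds are bounds. Points gather near 0, with Rxrg (2.31), Rdh1 (2.69) and Tgm2 (2.96) far to the right in T minus LLS.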

How the data were processed

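Signals were deposited as scanner intensity, extracted by Agilent Feature Extraction, version 10.7.1.1 per the file headers (the submitters' processing notes list 9.5.1.1), with background subtraction, spatial and multiplicative detrending and surrogate values for dim spots, and no scaling between arrays. All 4 arrays lay on 1 slide, per the file headers. A deposited value table gives linear intensity too. Its column medians were 50.5, 51.1, 51.3 and 51.9 for MMA, LLS, LMA and T. Its log2 values correlated with the scanner values at r of 0.9999 to 1.0000 over probes, so the direction is settled, but its between-array normalization is not given in the sources used here, and 4460 probes are not in it.

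Spots marked as outliers were left out, repeated spots averaged, log2 taken and the 75th percentile of each array subtracted. The brightest probe stood for a gene. Of 56601 probes, 32990 were named by accession through RefSeq, 10224 by a current symbol, 520 by an older one and 2574 by the name in the files, and 10293 had none. The file headers place probes on mm9. Comparisons kept genes whose probe passed the background call in 1 or both tissues. At least 2-fold was counted as different, with no test, as each tissue had 1 array. The number of arrays limits the precision. The counting was tested on simulated data, but no outcome of that is given here, so it lends the counts no support. Members and lists were chosen with earlier results of these data known. All members, any gene of the lists and, for members spanning at least 4-fold, the 3 genes of most like pattern could be named. Alternatives used limma 3.58.1 in R 4.3.3 (normexp with offset 50, quantile, cyclic loess), no filter or floor, both tissues above background, all probes averaged, the deposited table and 4-fold. The main steps ran in Python 3.11.15.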

Additional observations from a re-analysis of the deposited data

How the results depend on the processing

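No paired analysis was possible because each tissue had 1 array and no test. The 39 differences of at least 2-fold kept direction and size class under quantile normalization and with the deposited table, which comes from the same arrays. Leaving out filter and floor also kept all 39. That setting could not do otherwise, as it leaves measured differences unchanged and can only enlarge the bounds among them. With cyclic loess 38 stayed at least 2-fold, with normexp 34 and with all probes averaged 35 (38 in the same direction). The change of sign was Aldh1a3 in LMA minus MMA, at -0.37 with all probes averaged, where 1 of 3 averaged probes is dim throughout. There the dim MMA average had been raised to a floor above the LMA average, so the sign gives no direction. Counting 4-fold differences left 2 members in LLS minus LMA, 4 in LMA minus MMA, 3 in T minus LLS and 3 in T minus LMA. Asking for signal in both tissues left 3 in LMA minus MMA (5 compared) and 4 in T minus MMA (6 compared). The all-gene median shifted under cyclic loess by 0.12 in LLS minus MMA, 0.13 in LMA minus MMA, 0.16 in T minus LLS, 0.14 in T minus LMA and 0.28 in T minus MMA; without filter and floor the shift was -0.11 in LLS minus MMA, 0.16 in T minus LLS, 0.11 in T minus LMA and 0.14 in T minus MMA. With normexp the share of all genes at least 2-fold different was 3.20% in LLS minus LMA (6.42% as reported), 8.91% in LLS minus MMA (15.2%), 10.6% in LMA minus MMA (17.6%), 11.4% in T minus LLS (18.6%) and 14.0% in T minus LMA (21.1%); without filter and floor it was 12.2% in LLS minus LMA. Signals near background limit Aldh1a1, Aldh1a2 and Aldh1a3 in MMA and Cyp26a1 in LMA to bounds, and normexp, whose offset shrinks ratios of dim signals, reduced the size of each of these bounds.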

Other observations

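The genes with the most similar profiles were found for each of the 7 members that spanned at least 4-fold. Likeness was the root mean square difference (rms, log2) of the centred levels over the 4 tissues, among genes well above background in the same tissues. It is a description over 4 arrays. Aldh1a3 was closest to Nell1 (rms 0.22), which encodes a secreted protein known from bone formation, and to Klhl40 (0.23), a gene of the muscle sarcomere, among 517 candidates. Cyp26a1 had 58 candidates, and the closest was Fgfbp1 (0.27), for a secreted carrier of fibroblast growth factors, with the next, Pappa2, at 0.77. Aldh1a2 had no near match: the closest of 517 candidates was the homeobox gene Meox1 (0.51), and Nefm followed at 1.02.

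Cyp26b1 lay closest to the calcium channel gene Cacna1g (0.21), Cpt1a (0.21), for an enzyme of fatty acid oxidation, and Bcl11a (0.26), for a zinc finger repressor, among 12968 candidates. Dhrs3 lay closest to Batf (0.16), Tfap2c (0.18) and Arhgap25 (0.19). The closest to Aldh1a7 were Fez1 (0.36), Pantr1 (0.45) and the deiodinase gene Dio2 (0.45), and the closest to Aldh1a1 was Fxyd7 (0.30).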
